A study of Drosophila melanogaster with 3 samples.

Results

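ESCRT and Vps genes encode the machinery that sorts membrane proteins at endosomes and carries them to the lysosome or back to the Golgi. The genes described here were taken by symbol from the Release 6 annotation, namely Vps followed by a digit, symbols beginning CHMP, and shrb, lsn, TSG101 and ALiX. The rule found 32 of the 13945 protein-coding genes on arms 2L, 2R, 3L, 3R, 4 and X. Of these, 30 had 1 annotated transcription start site (TSS), and Vps20 and Vps60 had 2. The symbol rule used no measured value, but the group of genes was proposed with earlier results of these data known.

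The data are peak lists from chromatin immunoprecipitation and sequencing (ChIP-seq) of Hr51, a nuclear receptor of the NR2E group that is also called unfulfilled. There was 1 group, with 3 biological replicates of whole embryos, male and female pooled, aged 0 to 24 h. All came from 1 transgenic Drosophila melanogaster line that stably expressed Hr51 with a C-terminal GFP. The description gives the antibody as one against GFP and another label field gives it as Hr51. Chromatin was sonicated to 200 to 800 bp. No control library was among the samples, and a control experiment named as possible in the labels was not analysed here. The whole embryo mixes all tissues, and the lists say nothing about which of them a peak came from. The files hold no read counts, so the depth is unknown.

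In multivesicular body formation, the ESCRT-0, ESCRT-I and ESCRT-II complexes gather ubiquitinated cargo, and ESCRT-III filaments, taken apart by the ATPase Vps4, pinch vesicles into the endosome. The CORVET and HOPS complexes tether endosomes and lysosomes for fusion, retromer returns receptors from endosomes, and GARP and EARP tether vesicles that come from endosomes. Most of these proteins were named for yeast mutants in vacuolar protein sorting and are needed in nearly every cell.

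The promoter sequences of 6 genes are shown because these genes carried the reproducible peaks described in the results and because the sequences lay between, or just upstream of, start sites and in no annotated exon. They were read from Release 6 (dm6) and run 5′ to 3′ on the strand of the named gene. Capitals mark TATCGATA, the consensus bound by the boundary and housekeeping factors DREF and BEAF-32, and its 6-base core TATCGA, on either strand, so that the core on the other strand reads TCGATA. A match to these letters is a description of the sequence and not a measured binding site. The CHMP2B sequence is chr3L:5139396-5139618 on the plus strand, and its summit is base 131. The Vps33B sequence is chr3R:25473190-25473489, plus strand, with the summit of its stronger peak at base 47. For Vps36 it is chr3L:13513113-13513253, minus strand, with the summit at base 34. For Vps45 it is chr3R:9563674-9563923, plus strand, with the summit at base 88. For Vps60 it is chr3L:17621626-17621823, minus strand, with the summit at base 117. For Vps15 it is chr3R:9245870-9246119, minus strand, with the summit at base 148.
CHMP2B: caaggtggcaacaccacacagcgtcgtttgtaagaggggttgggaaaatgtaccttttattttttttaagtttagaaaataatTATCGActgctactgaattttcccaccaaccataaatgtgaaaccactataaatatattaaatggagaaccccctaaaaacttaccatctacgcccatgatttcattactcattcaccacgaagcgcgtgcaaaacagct
Vps33B: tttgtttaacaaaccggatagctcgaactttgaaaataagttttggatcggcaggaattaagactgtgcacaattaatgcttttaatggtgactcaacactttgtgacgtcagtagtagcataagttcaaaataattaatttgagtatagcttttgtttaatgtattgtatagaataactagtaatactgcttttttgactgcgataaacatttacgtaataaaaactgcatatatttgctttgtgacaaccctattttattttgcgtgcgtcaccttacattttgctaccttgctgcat
Vps36: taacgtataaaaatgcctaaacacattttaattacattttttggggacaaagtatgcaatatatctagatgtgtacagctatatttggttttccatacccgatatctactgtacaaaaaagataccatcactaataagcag
Vps45: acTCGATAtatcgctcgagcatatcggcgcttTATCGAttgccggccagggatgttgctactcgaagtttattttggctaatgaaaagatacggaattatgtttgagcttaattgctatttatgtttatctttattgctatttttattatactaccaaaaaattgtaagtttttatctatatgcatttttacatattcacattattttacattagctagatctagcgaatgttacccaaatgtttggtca
Vps60: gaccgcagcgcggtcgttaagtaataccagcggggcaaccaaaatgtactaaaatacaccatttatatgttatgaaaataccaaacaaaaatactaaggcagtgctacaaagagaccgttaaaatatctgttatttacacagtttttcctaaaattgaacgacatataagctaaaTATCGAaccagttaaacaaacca
Vps15: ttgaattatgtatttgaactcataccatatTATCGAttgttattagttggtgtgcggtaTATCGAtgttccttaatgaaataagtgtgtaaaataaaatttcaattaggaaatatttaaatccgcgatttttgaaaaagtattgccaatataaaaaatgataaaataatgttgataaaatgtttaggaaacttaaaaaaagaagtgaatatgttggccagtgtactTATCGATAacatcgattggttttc

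Promoter peaks were found at 8 of the 32 genes in the IDR list, which holds the 3496 peaks that the authors kept after filtering by the irreproducible discovery rate. A promoter peak is one whose summit lies within 500 bp of an annotated TSS of the gene. The 8 genes, from the highest peak signal to the lowest, were CHMP2B, Vps33B, Vps36, Vps50, Vps45, Vps60, Vps15 and Vps52. They make up 25.0% of the ESCRT and Vps genes (exact 95% interval 11.5% to 43.4%, for the counting of genes only), and 19.1% of all protein-coding genes had such a peak. The background share lies inside that interval, so the count is no result about the genes as a set. When each summit was given only to the protein-coding gene with the nearest TSS, 4 of the 32 genes (12.5%) kept a peak, against 14.0% of all protein-coding genes. Those 4 were CHMP2B, Vps33B, Vps60 and Vps15.

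The peaks at these 8 genes ranked high. Signal is the authors' value per peak, has no scale common to the lists, and is therefore given with its rank among the peaks of the same list, 1 being the highest. The median rank of the genes' strongest promoter peak was 577.5, against 1504 for the 2669 protein-coding genes that had any in that list. The strongest peak of 6 of the 8 genes was among the upper 1748 peaks of the list, against 57.3% of all genes with a peak. All 8 summits lay upstream of the gene's own TSS, as did 86.2% of the strongest summits of all genes with a peak. The nearest IDR summit, whether or not the strongest, was a median of 105.5 bp from the TSS for the 8 genes and 108 bp for all genes with a peak. At Vps33B the nearest was its weaker summit, at 48 bp. No IDR summit lay beyond 500 bp but within 1000 bp of a TSS of the 32 genes, and the nearest one beyond the limit was 1064 bp from the TSS of Vps13. The widest distance inside the limit was 332 bp, at Vps52.

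**Figure D1:**
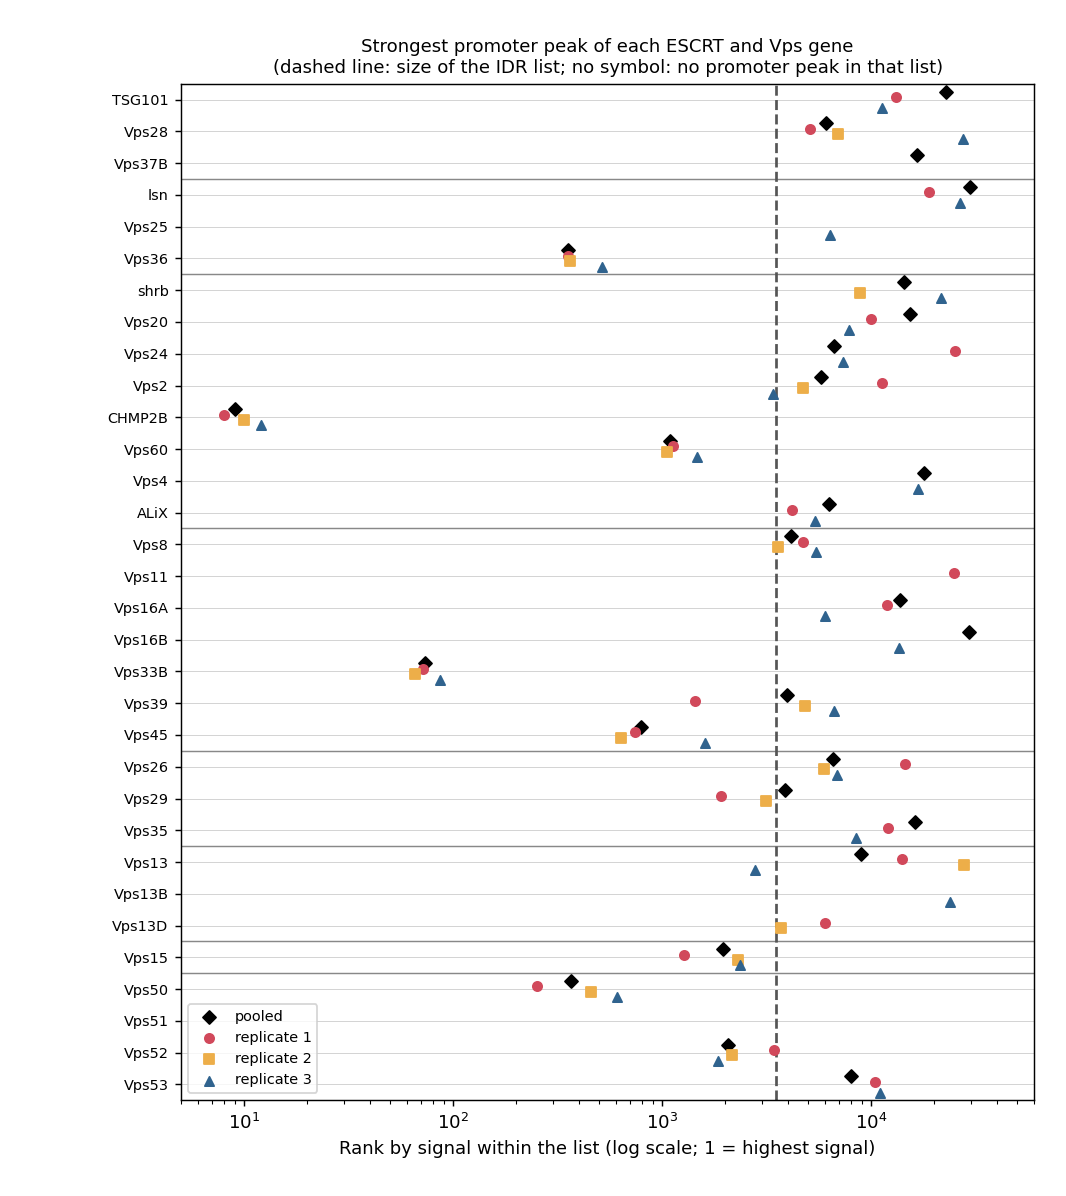
Rank by signal of the strongest promoter peak of each of the 32 genes (log axis, 1 = highest signal) in the pooled list and in replicates 1, 2 and 3, with genes grouped by role between grey lines. CHMP2B ranked 8, 10 and 12 in the replicates, and the symbols of the 8 genes with an IDR peak lie left of the dashed line at 3496, the size of the IDR list, in every list.

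Every one of these peaks was found again in each replicate. The 8 genes had 9 promoter peaks in the IDR list, since Vps33B had a pair of summits. All 9 had a summit within 150 bp among the 3496 peaks of highest signal (the top list) of each of the 3 replicates, against 55.2% of the 2064 IDR peaks that lay at protein-coding promoters. The IDR list was made from the same replicates, so this recurrence is not independent of it. The 9 peaks had pooled ranks of 9 to 2058, while the 2064 peaks were taken from the whole IDR list. The 2 shares are therefore not for peaks of like rank, and a comparison at like rank was not made. In the replicates' own top lists 10, 9 and 10 of the 32 genes had a promoter peak in replicates 1, 2 and 3, against 19.3%, 18.7% and 18.3% of all protein-coding genes. As shares of the 32 genes these were 31.25%, 28.1% and 31.25%, a mean of 30.2% ± 1.80, against 18.8% ± 0.510 of all protein-coding genes (SD, n = 3). In each replicate the share of the 32 genes was above that of all genes, and the errors measure only the spread between libraries. The 3 counts have 8 genes in common and no counting interval was made for them. They are therefore no result about the genes as a set. The genes in all 3 top lists were the same 8 that had an IDR peak, 25.0% of the 32 genes, against 12.1% of all protein-coding genes.

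The ESCRT-0 and ESCRT-I complexes recognise ubiquitinated cargo, and the ESCRT-I genes had weak peaks only. None of the 3 ESCRT-I genes had an IDR promoter peak, against 19.1% of all protein-coding genes. With so few genes in each group, the counts given by complex are no result about differences between complexes. For genes without an IDR peak, each rank is that of the strongest summit within 500 bp of the TSS in that list. These summits were not matched between lists, so ranks from different lists can belong to different peaks. Vps28 (FBgn0021814), which encodes the subunit that in yeast links ESCRT-I to ESCRT-II, ranked 5112, 6962 and 27372 in replicates 1, 2 and 3. TSG101 (FBgn0036666), the ubiquitin-binding subunit, ranked 13141 and 11194 in replicates 1 and 3 and had no promoter peak in replicate 2. Vps37B (FBgn0037299) had none in any replicate and a pooled peak of rank 16509, whose summit lay 428 bp inside the gene. The ESCRT-I peaks thus lay outside the 3496 of highest signal in every list.

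Of the 3 ESCRT-II genes, Vps36 (FBgn0086785) had a strong peak. Vps36, a subunit that binds ubiquitin, lies at chr3L:13511646-13513112 on the minus strand, and its pooled peak had a signal of 259 and rank 353. It ranked 355, 361 and 517 in replicates 1, 2 and 3, with signals of 91.5, 91.0 and 71.4. The summits lay 90, 127 and 140 bp upstream of the TSS in the replicates and 108 bp upstream in the IDR list. The IDR summit was 34 bp from the TSS of Liprin-beta, a scaffold protein gene on the opposite strand. The ESCRT-II gene lsn (FBgn0260940, known in other species as Vps22) ranked 18881 and 26479 in replicates 1 and 3, and Vps25 (FBgn0022027) ranked 6316 in replicate 3 and had no peak in the pooled list. The genes of this complex were therefore spread from rank 353 in the pooled list to no pooled peak.

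All 8 genes of ESCRT-III, its ATPase and its adaptor had a promoter peak in the pooled list, and CHMP2B and Vps60 had one in the IDR list. CHMP2B (FBgn0035589; chr3L:5139619-5140473, plus strand) encodes an ESCRT-III subunit of the Vps2 family. It had the strongest peak among the 32 genes. Its pooled signal was 1012, rank 9, and in replicates 1, 2 and 3 its signals were 391, 377 and 246, at ranks 8, 10 and 12. The replicate summits lay 96, 111 and 91 bp upstream of the TSS, and the IDR summit lay 93 bp upstream. The same summit was 131 bp from the TSS of Tcs5, which is transcribed away from CHMP2B.

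Vps60 (FBgn0036740; chr3L:17620123-17621625, minus strand) encodes the ESCRT-III protein known in mammals as CHMP5. Its pooled peak had a signal of 152 and rank 1092, and it ranked 1128, 1054 and 1463 in replicates 1, 2 and 3. The IDR summit was 82 bp upstream of Vps60 and 117 bp upstream of anchor, on the other strand. The core filament gene shrb (FBgn0086656, the Snf7 or Vps32 gene of the fly) had no such peak and ranked 8831 and 21440 in replicates 2 and 3, with none in replicate 1. Vps2 (FBgn0039402), which with Vps24 recruits Vps4 to the filament, ranked 11262, 4728 and 3381 in replicates 1, 2 and 3, so that replicate 3 alone placed it in the top list. The peaks of Vps20, Vps24, Vps4 and ALiX lay at pooled ranks 15253, 6627, 17888 and 6299. None of these 4 genes had a promoter peak in replicate 2. Vps4 (FBgn0283469), the ATPase that disassembles the filament, ranked 16649 in replicate 3 and had no promoter peak in either other replicate. The highest pooled rank among the 6 genes of this group without an IDR peak was 5765, at Vps2.

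Among the 7 genes grouped as HOPS, CORVET and Sec1/Munc18 genes, Vps33B and Vps45 had IDR peaks, against 19.1% of all protein-coding genes. Both encode Sec1/Munc18 proteins, which act on SNAREs in membrane fusion. The others, Vps8, Vps11, Vps16A, Vps16B and Vps39, had no IDR promoter peak. Vps33B (FBgn0039335; chr3R:25473490-25475756, plus strand) had 2 summits within 1 deposited interval. The stronger, 254 bp upstream of the TSS, had a signal of 507 and pooled rank 73, and ranked 72, 66 and 86 in replicates 1, 2 and 3. The weaker, 48 bp upstream, had a signal of 293 and pooled rank 260. Its matched ranks were 139, 668 and 3158 in replicates 1, 2 and 3, a wider spread than that of the stronger summit. The stronger summit was 178 bp from the TSS of Fur1, a furin protease gene, and nearer to it than to Vps33B.

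Vps45 (FBgn0261049; chr3R:9563924-9566092, plus strand) encodes the Sec1/Munc18 protein of early endosomes. Its pooled peak had a signal of 180 and rank 789, and it ranked 744, 635 and 1606 in replicates 1, 2 and 3. The IDR summit was 163 bp upstream of Vps45 and 88 bp upstream of CG9393. Vps39 (FBgn0038593), a HOPS subunit, ranked 1433, 4833 and 6646 in replicates 1, 2 and 3. Vps8 (FBgn0035704), the subunit particular to CORVET, ranked 4711, 3575 and 5451, with summits 363, 184 and 38 bp upstream of the TSS. Vps39 and Vps8 lay just below the IDR list in the pooled data, at ranks 3949 and 4129. Vps16A, a core subunit, and Vps16B, the known partner of Vps33B, had pooled peaks at ranks 13783 and 29171. Vps11 (FBgn0052350), also a core subunit, had only a replicate 1 peak at rank 24883. The nearest IDR summit to Vps11 was 271595 bp away.

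The retromer genes Vps26, Vps29 and Vps35, which encode the trimer that selects receptors for return, all had a promoter peak in the pooled list and none in the IDR list. Vps29 (FBgn0031310) had the highest pooled rank of any gene without an IDR peak, 3869, with a signal of 71.8. It ranked 1905 and 3130 in replicates 1 and 2, inside both top lists, and had no promoter peak in replicate 3. Vps26 (FBgn0014411) had a promoter peak in all replicates, at ranks 14471, 5924 and 6888, and Vps35 (FBgn0034708) had one in replicates 1 and 3, at ranks 12045 and 8428.

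The Vps13 family, large proteins that carry lipids between membranes, had no IDR promoter peak among 3 genes, against 19.1% of all protein-coding genes. Vps13 (FBgn0033194) ranked 14011, 27838 and 2776 in replicates 1, 2 and 3, so replicate 3 stood apart from the others. The summits differed too, at 181 bp inside the gene, 441 bp upstream and 57 bp inside. Vps13D (FBgn0052113) ranked 6007 and 3684 in replicates 1 and 2 but had none in the pooled list. Vps13B (FBgn0039727) had a replicate 3 peak at rank 23756.

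Vps15 (FBgn0260935; chr3R:9240757-9245869, minus strand) encodes the kinase-like regulatory subunit of the phosphatidylinositol 3-kinase complex that marks endosomes. Its pooled peak had a signal of 110 and rank 1955, and it ranked 1276, 2299 and 2353 in replicates 1, 2 and 3. The IDR summit lay 103 bp upstream, and no other protein-coding gene had a TSS within 500 bp of it. Vps15 was the 1 gene of the 8 whose peak was shared with no other protein-coding promoter.

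Of the 4 genes of the GARP and EARP complexes, Vps50 and Vps52 had IDR peaks, against 19.1% of all protein-coding genes. Vps50 (FBgn0034271), the subunit particular to EARP, had a pooled signal of 257, rank 366, and ranked 251, 458 and 604 in replicates 1, 2 and 3. Its IDR summit was 152 bp upstream of the TSS and 64 bp from that of PIG-A, a gene of GPI anchor synthesis. Vps52 (FBgn0031710; chr2L:5521281-5523898, minus strand) had a pooled signal of 107, rank 2058, and ranked 3415, 2145 and 1841 in replicates 1, 2 and 3. Its IDR summit was 332 bp upstream of the TSS, the farthest of the 8 strongest summits, and 68 bp from the farther of the 2 annotated start sites of Elp4, an Elongator subunit gene. With a distance limit of 250 bp Vps52 had no IDR promoter peak, while Vps33B kept its nearer one. Vps53 (FBgn0031598) ranked 10439 and 11009 in replicates 1 and 3. Vps51 (FBgn0034380) had a promoter peak in none of the 5 lists, the 1 gene of the 32 of which this holds, as for 30.9% of all protein-coding genes.

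**Figure D2:**
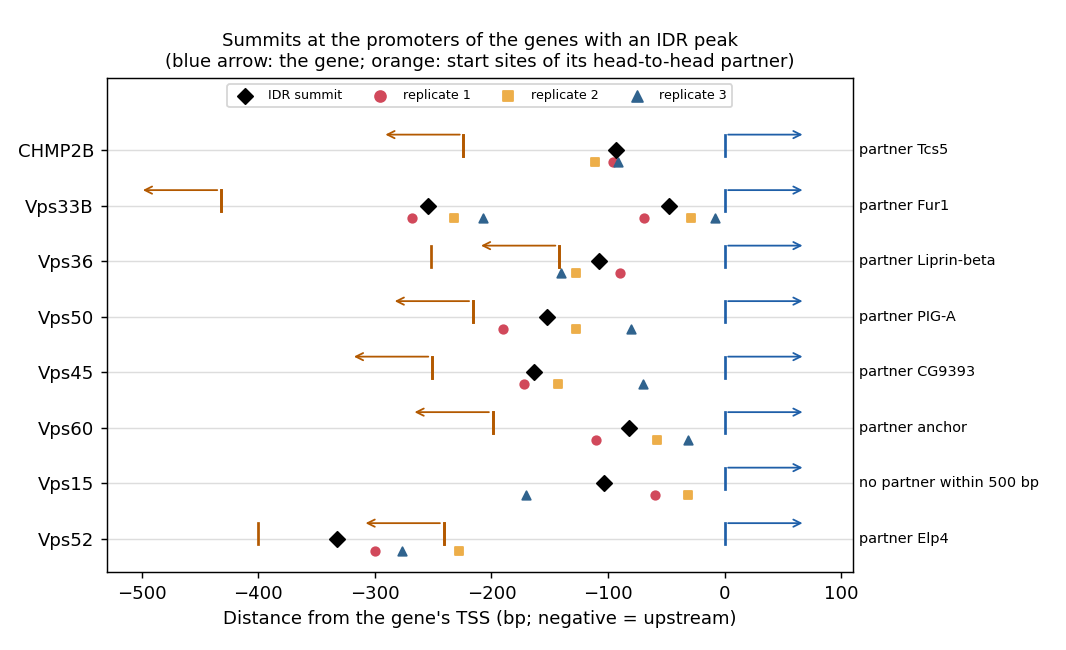
Summits at the promoters of the 8 genes with an IDR peak, as distance in bp from the gene's TSS (blue arrow), with the start sites of the head-to-head partner in orange (2 each for Liprin-beta and Elp4) and replicate summits matched within 150 bp of each IDR summit. All 9 IDR summits lie upstream of the gene, and at 6 of the 7 genes with a partner they lie between the gene's TSS and the partner's nearest one; at Vps52 the summit lies between the 2 start sites of Elp4.

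The promoter peaks of 7 of the 8 genes belonged to a shared, head-to-head promoter. Head-to-head, or divergent, genes are transcribed away from each other, here with start sites at most 500 bp apart. The start sites were 142 bp apart at Vps36 and Liprin-beta, 199 bp at Vps60 and anchor, 216 bp at Vps50 and PIG-A, and 224 bp at CHMP2B and Tcs5. They were 251 bp apart at Vps45 and CG9393 and 432 bp at Vps33B and Fur1. Elp4 had 2 annotated start sites, 241 and 400 bp from that of Vps52, and the Vps52 summit lay between them, 91 bp beyond the nearer one and 68 bp short of the farther one. Liprin-beta had another start site, 252 bp from that of Vps36, so the 142 bp there is to the nearer one. A peak between 2 start sites this close could belong to either gene, and the lists cannot tell them apart. The start sites of Vps15 and CG8420 were head-to-head at 780 bp.

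This arrangement was common among the 32 genes. It held for 18 of them (56.25%), against 27.4% of all protein-coding genes, and at 56.7% of all genes with an IDR promoter peak. Among the 18, 7 had an IDR promoter peak (38.9%), against 39.7% of all divergent genes. Among the other 14 genes 1 had one (7.14%), against 11.4% of all genes with no such partner. Within each arrangement the share of the 32 genes was therefore near or below that of all genes, although it was above it for both arrangements together. The part of gene arrangement in the IDR count was not tested. In the pooled list 16 of the 18 (88.9%) had a promoter peak, against 80.6% of all divergent genes. Of the 14 without a partner 11 (78.6%) had one, against 44.3% of all such genes. With start sites up to 1000 bp apart, 21 of the 32 genes (65.6%) were divergent, against 36.2% of all genes, and all 8 genes with an IDR peak were among the 21.

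**Figure D3:**
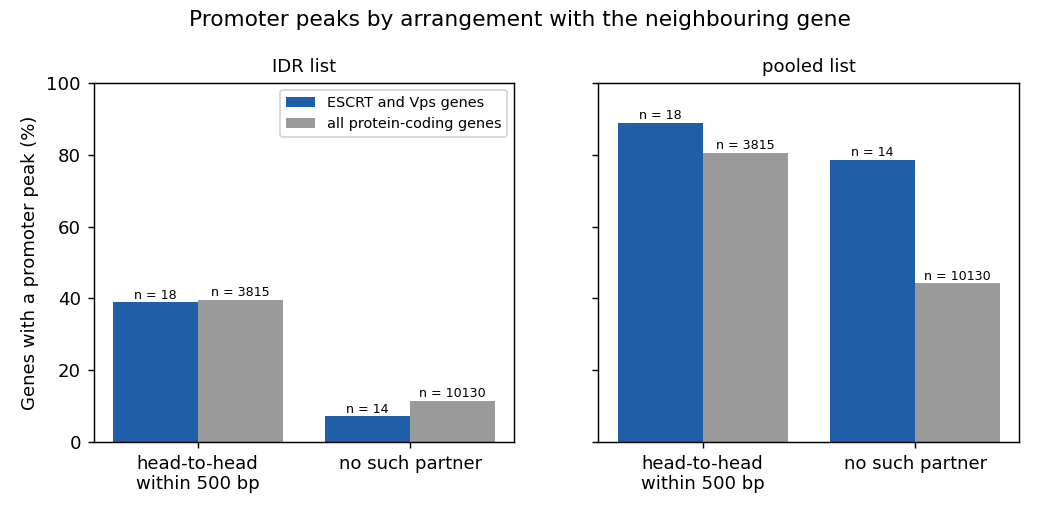
Percent of genes with a promoter peak in the IDR list (left) and the pooled list (right), for ESCRT and Vps genes (blue) and all protein-coding genes (grey), split by whether a head-to-head partner starts within 500 bp. In the IDR list the blue bars, 38.9% and 7.14%, stand slightly below the grey ones, and in the pooled list, 88.9% and 78.6%, above them.

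Weaker peaks at these genes were common. The pooled list of 30000 entries includes background, with a lowest deposited −log10 q of 0.0686, against 3.00 in the IDR list. It held a promoter peak at 27 of the 32 genes (84.4%), against 54.2% of all protein-coding genes. With entries of a deposited q of 0.05 or lower, 16 of the 32 genes (50%) had one, against 30.7%. The 8 genes added to those of the IDR list were Vps29, Vps39, Vps8, Vps2, Vps28, ALiX, Vps26 and Vps24, which were pooled ranks 3869 to 6627. The 19 genes with a pooled but no IDR promoter peak had a median rank of 8952, with 10 of them within the first 10000 entries. The 5 genes with no pooled promoter peak were Vps25, Vps13D, Vps13B, Vps11 and Vps51.

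**Figure D4:**
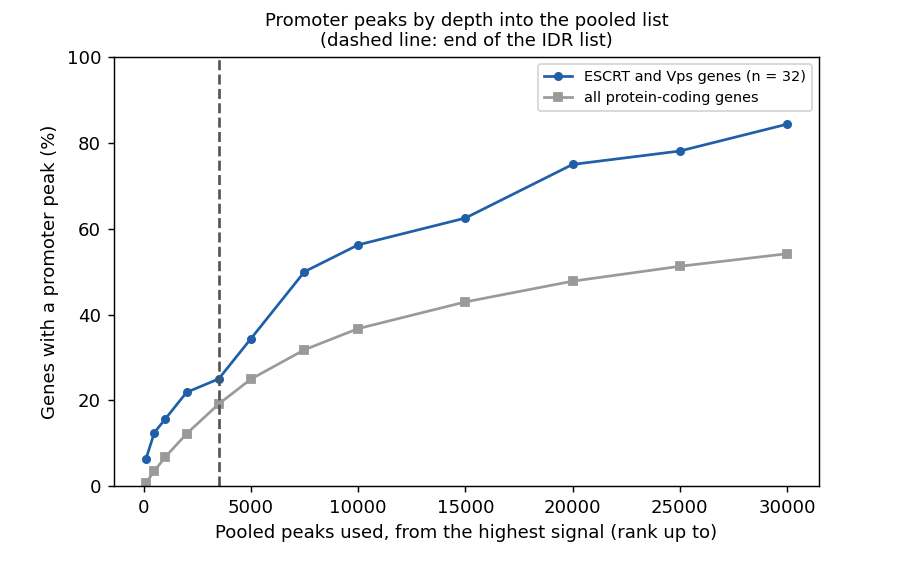
Percent of the 32 ESCRT and Vps genes (blue) and of all protein-coding genes (grey) with a promoter peak among the pooled peaks up to a given rank by signal, with the end of the IDR list as a dashed line at 3496. The blue line lies above the grey one at every rank plotted, with 6.25% against 0.724% at rank 100, 25.0% against 19.1% at the end of the IDR list and 50% against 31.8% at rank 7500.

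By depth into the pooled list, the share of the 32 genes was above that of all protein-coding genes at each of the ranks examined, on few genes at the start of the list. Among the first 100 peaks 2 of the 32 genes, CHMP2B and Vps33B, had a promoter peak (6.25%), against 0.724% of all protein-coding genes. Among the first 1000 peaks 5 had one (15.6%), against 6.76%, and among the first 10000 peaks 18 (56.25%), against 36.7%. No ESCRT or Vps gene had its strongest pooled promoter peak between ranks 2058 and 3869, so the end of the IDR list fell in a gap of this gene set.

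The whole replicate lists, also of 30000 entries and with background, differed in how many of the genes they held. In replicates 1, 2 and 3 a promoter peak was at 25, 17 and 27 of the 32 genes (78.1%, 53.1% and 84.4%). The shares of all protein-coding genes were 54.4%, 50.8% and 52.6%. In replicate 2 the genes were thus near the background share, while in replicates 1 and 3 they were above it. Over replicates this gave 71.9% ± 16.5 for the 32 genes and 52.6% ± 1.75 for all protein-coding genes (SD, n = 3). A promoter peak in replicates 1 and 3 but not 2 was found at 8 genes (25.0%), against 6.22% of all genes. These were TSG101, lsn, Vps20, Vps24, ALiX, Vps16A, Vps35 and Vps53, and none of them had an IDR peak. All 3 replicates held a promoter peak at 14 of the 32 genes (43.75%), against 37.4% of all genes.

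**Figure D5:**
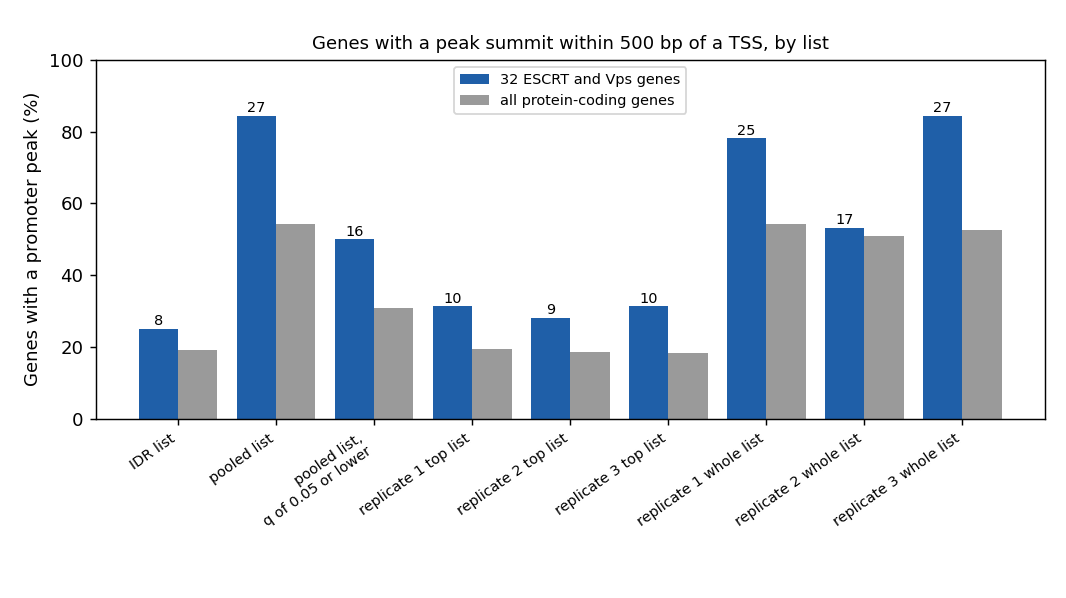
Percent of genes with a promoter peak in each list, for the 32 ESCRT and Vps genes (blue, with the number of genes above the bar) and all protein-coding genes (grey). The whole list of replicate 2, with 17 genes (53.1%), is the one in which the blue and grey bars nearly meet.

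Away from promoters no IDR summit lay inside these genes. An IDR summit inside the gene and beyond 500 bp of its start sites was found at 0 of the 32 genes, against 5.34% of all protein-coding genes. With so low a background share, the 0 is no result about the genes as a set. An entry of the pooled list lay in that part of the gene at 14 of the 32 (43.75%), against 40.6% of all protein-coding genes, a share near the background. The median gene length was 2620 bp for the 32 genes and 2166 bp for all. The longest, Vps13 (13867 bp), Vps13D (13557 bp) and Vps13B (12230 bp), had 0 such entries, and Vps15, Vps24, Vps35 and Vps39 had 2 each.

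The DREF/BEAF letters were frequent in the promoters of these genes, with or without an IDR peak. TATCGATA reads the same on both strands and holds TATCGA on each, so counts of the core include it. From 250 bp upstream to 50 bp downstream of the gene's 5′ end, 7 of the 32 promoters (21.9%) held TATCGATA, against 9.37% of all 13945 promoters. They were those of TSG101, Vps15, Vps16A, Vps36, Vps39, Vps51 and Vps53. The core was in 18 of the 32 (56.25%), against 27.7% of all promoters. It was in 5 of the 8 promoters with an IDR peak (62.5%), against 39.4% of all promoters with one. It was in 13 of the 24 without one (54.2%), against 25.0% of all promoters without one. Vps51, with no peak in any list, held the 8-base sequence.

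Around the summits the letters were counted within 50 bp and within 100 bp, where 1 summit of the 9 is already 11.1%. Within 50 bp of the 9 IDR summits TATCGATA was found at 1 (11.1%), that of Vps52, against 5.52% of all 2064 IDR promoter peaks. The core was found at 2 (22.2%), those of CHMP2B and Vps52, against 15.8%. Within 100 bp the core was at 5 of the 9 (55.6%), those of CHMP2B, Vps45, Vps60, Vps15 and Vps52, against 26.5%. In the printed sequences the capitals at Vps15 lie on both sides of its summit at base 148, and Vps33B and Vps36 have none. The Vps36 promoter window does hold TATCGATA, but in the stretch beyond the nearer start site of Liprin-beta, which is not printed.

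The letters of the nuclear receptor half-sites were counted at the same summits and promoters. The NR2E half-site AAGTCA, sought on both strands as TGACTT too, was at 0 of the 9 summits within 50 bp, against 5.14% of all IDR promoter peaks. Within 100 bp it was at 1 (11.1%), that of Vps52, against 9.11%. Counts of 0 and 1 of 9 summits thus lie on either side of the shares of all peaks. In the promoter windows AAGTCA was in 3 of the 32 (9.38%), those of Vps24, Vps35 and Vps52, against 16.2% of all promoters. The half-site AGGTCA was in 0 of the 32 promoters, against 5.89%. The M1BP sequence GGTCACACT was in 2 of the 32 (6.25%), those of Vps4 and Vps50, against 6.05%. The E-box CACGTG was in 0 of the 32, against 4.24%. The absence of these letters from a window says nothing about whether the factor was there. The 101 bases around the 9 summits held 31.1% ± 5.63 G and C, against 38.8% ± 10.0 around all IDR promoter summits (SD over peaks) and 37.1% around those at divergent genes. The lowest was 19.8%, at Vps15.

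Genes of the same pathway with other symbols were also examined, in a list chosen with earlier results of these data known. No test or interval was made for this list. It held 30 genes, all matched in the annotation. An IDR promoter peak was at 9 of them (30.0%) and a pooled one at 23 (76.7%), against 19.1% and 54.2% of all protein-coding genes. The strongest was at Rbsn-5, which encodes a Rab5 effector that works with Vps45 in early endosomes, with pooled rank 298 and ranks 229, 185 and 1096 in replicates 1, 2 and 3. Mon1 and Ccz1, which together activate Rab7, ranked 450 and 1473 in the pooled list. The sorting nexin genes Snx3 and Snx27, whose products work with retromer, ranked 680 and 1737. The other sorting nexin genes of the list had no IDR peak, with Snx1 at 16566 and Snx6 without a pooled promoter peak. The GTPase genes Rab5 and Rab7 ranked 1680 and 1681, while Rab4 and Rab11, at 9243 and 3518, had no IDR peak. Hrs, at 23647, and Stam, without a pooled promoter peak, had no IDR peak either. The gene scat, the fly Vps54, ranked 756, and car, the fly Vps33A, ranked 2625. The HOPS genes dor (Vps18) and lt (Vps41) and the kinase gene Pi3K59F (Vps34), whose product binds that of Vps15, had no promoter peak in the pooled list.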

How the data were processed

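The 5 dm6 peak lists were analysed, from 3 ChIP-seq libraries of whole embryos in 1 group. Each relaxed list (1 for each replicate and 1 for pooled reads, 30000 entries each) was made by the authors from alignments and 1 further file, and the optimal list by IDR filtering of these, per the deposited README text. Which aligner and peak caller made them is not given in the sources used here. For ranks within a list, the deposited signal per peak was used, and the deposited −log10 q values for 1 limit (q of 0.05). The IDR list equals the 3496 pooled entries of highest signal. The 5 dm3 lists were not used.

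Summits were assigned to TSSs of Ensembl release 115 (BDGP 6.54), and sequences were read from the RefSeq copy of Release 6, with the same coordinates as dm6. All genes with a TSS within 500 bp of a summit counted. All 32 genes are named, with every gene that shares their IDR peaks and the genes of the pathway list with an IDR peak. Genes and lists were chosen with earlier results of these data known, so no test was run, and shares are set beside those of all protein-coding genes, the 32 included. Intervals cover counting only. Peak lists hold no expression, so the embryo label was not checked against markers. The assignment was tested on simulated peaks. Tools were pandas 2.3.3, numpy 2.4.6 and scipy 1.17.1 in Python 3.11.15, with matplotlib 3.10.9 for plots.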

Additional observations from a re-analysis of the deposited data

How the results depend on the processing

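No paired analysis was possible because there was 1 group. The 8 genes with an IDR promoter peak were 6 to 8 in every alternative except that of the nearest gene only, which gave 4, and were 8 with any replicate left out. That last setting kept IDR peaks that both remaining top lists held, without remaking the IDR list. Since all 9 peaks of these genes were in all 3 top lists, it could not change their count, median rank or median distance. The count in the pooled list, 27, was 21 to 28, except for 16 with a q of 0.05 or lower, an alternative chosen after seeing the data. The mean over the replicates' top lists, 9.67, was 5.33 with the nearest gene only, 4.67 with the 1000 highest peaks and 23.0 with whole lists, and 9.5 to 10 without each replicate. Beside these pooled and top-list alternatives, the share of all protein-coding genes was worked out for 2 only. It was 30.7% with a q of 0.05 or lower and 52.6% with whole lists. For the others, including the nearest gene only, whether the 32 genes stayed above all genes was not examined. The share of all protein-coding genes in the IDR list, 19.1%, was 16.0% at 250 bp, 21.6% at 1000 bp, 17.4% with 1 TSS per gene, 14.0% with the nearest gene only, 13.6% where the interval had to hold the TSS, 11.0% with the upper 1748 peaks, and 12.5% to 14.2% without each replicate. The 1 summit with TATCGATA became 0 with the upper 1748 peaks, 2 with windows of 100 bp and 2 with the core TATCGA. These moves follow from fewer or more peaks, letters or start sites being counted. The median rank (359.5 to 577.5) and the median distance (100.5 to 105.5 bp) moved by less than the spread between replicates. For the rank, that spread was the SD (458) of the medians over the genes in each replicate's own top list. Those were 10, 9 and 10 genes rather than the 8, so the spread also holds changes in which genes were counted. Matching CHMP in any case added Chmp1, which had a pooled peak and no IDR peak. Unknown depth limits every statement that a peak was not found.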
